A study of Mus musculus with 6 samples.

Results

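Trem2, Tyrobp, Gpnmb, Spp1, Lgals3, Fabp5, Cd9 and Cd63 are 8 genes that mark lipid-handling, debris-clearing macrophages, and they were followed in tibialis anterior muscle of mice that lack exon 51 of Dmd. They were chosen by name from a count table of 54232 genes, partly because Spp1, Gpnmb, Lgals3 and Trem2 were among the largest differences between the genotypes. The difference between genotypes therefore chose the members, and it is given for them as a description with no test. Strand-marked mRNA libraries came from C57BL6 mice aged 1 month, 3 of genotype Delta 51 (D51 4, D51 5 and D51 6) and 3 of genotype WT (WT 1, WT 2 and WT 3). The tibialis anterior is a fast-twitch muscle at the front of the lower leg, and Dmd encodes dystrophin, which anchors the fibre's cytoskeleton to the matrix around it. The labels name no other allele, agent or treatment in either genotype and call the libraries biological replicates, with no litter or day given, so p-values measure the spread between these libraries.

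Trem2 is a lipid-sensing receptor of macrophages, microglia and osteoclasts that has no signalling tail of its own. It pairs with the adaptor Tyrobp (DAP12), whose phosphorylated tail recruits the kinase Syk, and this axis is known for its part in the switch of macrophages to a lipid-associated state in fat, atherosclerotic plaque and damaged brain. Genes known to be high in that state include Gpnmb, a transmembrane glycoprotein of lysosomes and the cell surface, Spp1, the secreted integrin ligand osteopontin, and Lgals3, the galactoside-binding lectin galectin-3. The same holds for Fabp5, a cytosolic fatty acid carrier, and for the tetraspanins Cd9 and Cd63, which organise membrane and late endosome proteins and are made by many other cells. In dystrophic muscle, macrophages are known to enter damaged fibres and clear their remains.

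Totals of reads assigned to genes ranged from 18571038 to 20105817 in D51 and from 15681945 to 21020353 in WT. Dmd, counted over the whole gene and not over exon 51, stood at 48.4 ± 2.46 CPM in D51 and 250.3 ± 15.3 CPM in WT (SD, n = 3 each), with no overlap between groups. CPM here are library-scaled counts after TMM normalization (trimmed mean of M values), which sets the bulk of genes level between libraries. With scaling to library size alone the median gene would have a log2 fold change of 0.34, against -0.01 with TMM, so changes are relative to the bulk of genes. For the labelled muscle, 7 markers of fast fibres summed to 79378, 76427 and 106490 CPM in D51 4 to 6 and 116687 to 120021 CPM in WT. D51 6 stood apart from D51 4 and D51 5, with 10 general macrophage genes at a median of 56.4% of their mean in those libraries, where all 14335 genes tested had a median of 99.0%. In the same library the fast myosin gene Myh4 stood at 191% and Actn3 at 182% of their mean in D51 4 and D51 5, and Myh1 at 76.8%. The members' differences are also given without D51 6. Mitochondrial transcripts took 13.4% to 14.8% of counts in D51 and 19.4% to 21% in WT.

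The promoters of the genes with the largest differences are shown beside that of Cd9, whose difference was the smallest. Sequences are from RefSeq on build GRCm38.p6, where 6 of the 8 members had an entry with 7 start sites in all. The 250 bases before the start of Spp1 (chr5:104434861-104435110, forward strand), Gpnmb (chr6:49036268-49036517, forward), Trem2 (chr17:48346151-48346400, forward) and Cd9 (chr6:125494761-125495010, reverse) read as follows, 5′ to 3′, with matches to the searched motifs in capitals.
Spp1: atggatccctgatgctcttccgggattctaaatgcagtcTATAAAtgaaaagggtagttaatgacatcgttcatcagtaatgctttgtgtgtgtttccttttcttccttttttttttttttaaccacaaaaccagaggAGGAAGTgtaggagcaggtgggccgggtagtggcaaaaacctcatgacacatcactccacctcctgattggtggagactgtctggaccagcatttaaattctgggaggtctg
Gpnmb: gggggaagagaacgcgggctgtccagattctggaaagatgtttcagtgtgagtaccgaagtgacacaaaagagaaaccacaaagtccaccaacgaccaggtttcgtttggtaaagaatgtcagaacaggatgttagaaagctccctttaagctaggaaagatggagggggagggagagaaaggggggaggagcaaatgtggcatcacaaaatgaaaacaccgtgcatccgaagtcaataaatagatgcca
Trem2: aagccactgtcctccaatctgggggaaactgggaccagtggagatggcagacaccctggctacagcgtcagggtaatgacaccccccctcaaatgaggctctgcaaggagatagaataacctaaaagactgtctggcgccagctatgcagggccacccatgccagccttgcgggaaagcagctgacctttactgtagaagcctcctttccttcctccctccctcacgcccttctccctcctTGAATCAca
Cd9: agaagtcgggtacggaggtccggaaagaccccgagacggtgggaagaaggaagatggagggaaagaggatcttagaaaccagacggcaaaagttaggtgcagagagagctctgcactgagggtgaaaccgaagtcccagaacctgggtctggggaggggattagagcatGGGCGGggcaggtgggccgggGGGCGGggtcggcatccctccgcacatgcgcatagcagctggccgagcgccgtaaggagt
Motifs were searched on both strands from 250 bases before to 50 after the start, in all 32851 promoters of the table. The letters of the TATA box, TATAAA, were held by 13.6% of them. The GC box was searched as GGGCGG and was held by 35.7%. The E-box, searched as CACGTG, was held by 7.15%. For the AP-1 motif the letters were TGANTCA, held by 7.81%. The motif of PU.1, a factor of macrophages, was searched as AGGAAGT and was held by 9.35%. Spp1 held the PU.1 letters at -112 and the TATA letters at -211, and Trem2 held the AP-1 letters at -9. Gpnmb held the AP-1 letters at 9, past its start and so outside the stretch shown. Cd9 held the GC box at -81 and -60, and Lgals3 held it at -7 and 5, on opposite strands. GC content of the 250 bases was 43.6% for Spp1, 47.2% for Gpnmb, 56.0% for Trem2 and 61.6% for Cd9, against a median of 52.4% over the table. These matches describe letters and not sites in use.

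The receptor Trem2 was nearly silent in WT muscle, while its adaptor Tyrobp was not. Trem2 (chromosome 17, 48346401 to 48354147) had 280, 402 and 214 counts in D51 4 to 6, against 8, 3 and 6 counts in WT 1 to 3. As levels these were 12.0, 17.6 and 11.1 CPM in D51 and 0.443, 0.164 and 0.430 CPM in WT. No D51 library came near a WT library, and the WT level rests on 17 reads in all. The group means were 13.6 ± 3.51 and 0.346 ± 0.157 CPM (SD, n = 3 each), a 39.2-fold ratio of means and a log2 fold change of 5.30 (SE 0.335). Tyrobp (chromosome 7, 30413760 to 30417585) stood at 18.4, 29.6 and 15.7 CPM in D51 and at 2.43, 0.822 and 1.72 CPM in WT, with a log2 fold change of 3.68 (SE 0.374). D51 5 was highest and D51 6 lowest for both genes. In bulk muscle, a difference in the number of macrophages and a difference in RNA per macrophage cannot be told apart.

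Gpnmb had the widest spread of the 8 genes among D51 libraries. It (chromosome 6, 49036546 to 49070929) stood at 144, 245 and 369 CPM in D51 4 to 6 and at 6.97, 5.10 and 5.30 CPM in WT 1 to 3. Unlike Trem2, it was highest in D51 6. The means were 253 ± 112 and 5.79 ± 1.03 CPM, a log2 fold change of 5.44 (SE 0.369), or 5.06 without D51 6.

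Osteopontin and galectin-3, the secreted members, differed as far. Spp1 (chromosome 5, 104435118 to 104441050) stood at 146, 182 and 97.2 CPM in D51 and at 2.05, 1.15 and 3.80 CPM in WT. Its log2 fold change of 5.97 (SE 0.395) was the largest of the 8 and rank 9 of the 14335 genes tested, with a 60.8-fold ratio of means. It shares 309 exonic bases with Gm42793 on the same strand, a gene with 8 reads in D51 and 0 in WT, and the sources used here do not say how reads over both were counted. Lgals3 (chromosome 14, 47367751 to 47386160) stood at 115, 113 and 85.4 CPM in D51 and at 2.21, 2.68 and 3.58 CPM in WT. It was the steadiest of the 4 largest differences, with a coefficient of variation of 15.9% over D51 libraries, against 44.5% for Gpnmb, and a log2 fold change of 5.23 (SE 0.20).

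The lipid carrier and the tetraspanins differed less. Fabp5 (chromosome 3, 10012548 to 10016607) stood at 21.6, 27.7 and 15.1 CPM in D51 and at 4.98, 2.79 and 3.80 CPM in WT, a log2 fold change of 2.47 (SE 0.275). Cd9 (chromosome 6, 125460266 to 125494791) stood at 48.3, 45.6 and 58.6 CPM in D51 and at 25, 19.9 and 23.3 CPM in WT. Cd63 (chromosome 10, 128900989 to 128912822) stood at 61.8, 63.3 and 50.01 CPM in D51 and at 28.1, 24.1 and 23.8 CPM in WT. Their log2 fold changes were 1.16 (SE 0.130) and 1.2 (SE 0.120), close to 2.24-fold and 2.30-fold ratios of means. In both genes the lowest D51 library was above the highest WT library. A pseudogene of Cd63 at 98.9% identity took 59 counts in D51 and 14 in WT, beside 3856 and 1280 for Cd63, so reads could be split between them. Without D51 6 the log2 fold changes were 5.42 for Trem2, 3.85 for Tyrobp, 5.06 for Gpnmb, 6.18 for Spp1, 5.35 for Lgals3, 2.67 for Fabp5, 1.05 for Cd9 and 1.3 for Cd63. By the authors' deposited table the log2 fold changes are 5.26 for Trem2, 3.64 for Tyrobp, 5.41 for Gpnmb, 5.89 for Spp1, 5.18 for Lgals3, 2.44 for Fabp5, 1.13 for Cd9 and 1.17 for Cd63.

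**Figure D1:**
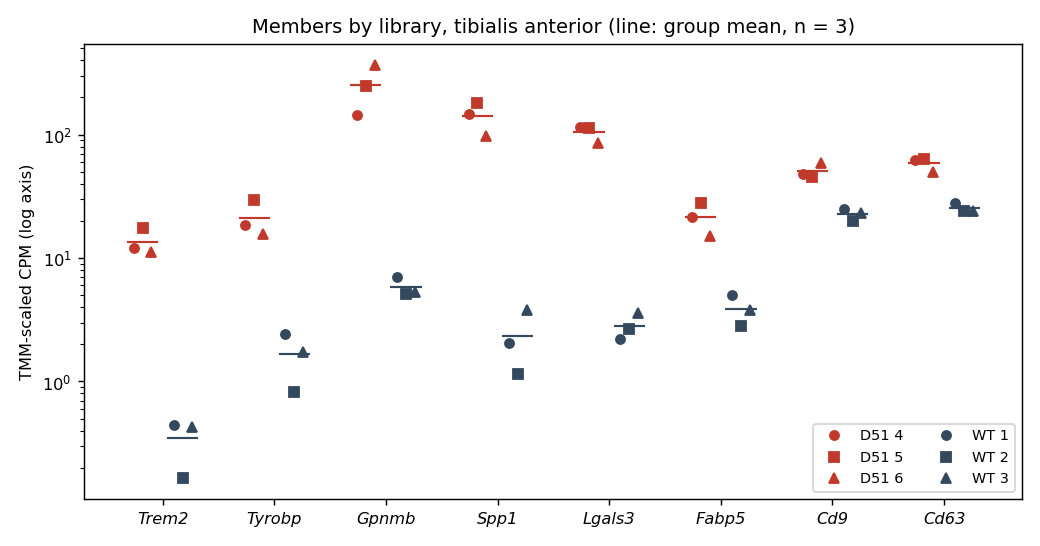
TMM-scaled CPM on a log axis for the 8 members in each D51 library (red, left of each pair) and each WT library (dark, right), with a line at each group mean. No D51 library overlaps a WT library in any of the 8 genes, and Gpnmb and Cd9 have their highest value in D51 6.

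All 8 members passed the filter on low counts, and all 8 were called higher in D51 by edgeR, where 16.1% of genes tested were. None of the 8 overlapped between groups, where 23.8% of genes tested had every D51 library above every WT library. The members' median log2 fold change was 4.45, against -0.01 over all genes tested. Since this contrast chose them, nothing is read from these counts.

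Per kilobase, the order of the 8 genes differed between genotypes. In the deposited RPKM (reads scaled to exon length and library total), the D51 order ran from Spp1 (98.7 ± 35.3) through Lgals3 (64.1 ± 14.2), Gpnmb (43.1 ± 16.6), Tyrobp (36.4 ± 14.7), Cd9 (28 ± 1.66), Cd63 (18 ± 3.44) and Fabp5 (6.89 ± 2.43) to Trem2 (3.13 ± 0.989). Each of the first 5 overlapped its neighbour over the 3 libraries, while Cd9, Cd63, Fabp5 and Trem2 were apart from each other. The WT order ran from Cd9 (9.89 ± 1.29) through Cd63 (6.11 ± 0.642), Tyrobp (2.28 ± 1.11), Lgals3 (1.37 ± 0.349), Spp1 (1.28 ± 0.751), Fabp5 (0.973 ± 0.287) and Gpnmb (0.795 ± 0.150) to Trem2 (0.0697 ± 0.0321). There the tetraspanins stood apart at the top and Trem2 at the bottom, and the 5 genes between overlapped their neighbours. Spp1 lay above 98.1% of the genes of the RPKM table in D51 and above 35.0% in WT. The exon length behind RPKM merges all annotated transcripts, and it is 4946 bases for Trem2, whose longest protein-coding transcript has 1088. With that transcript length in its place, Trem2 would stand at 14.2 ± 4.50 RPKM in D51 and 0.317 ± 0.146 in WT, again last. Cd63 at 59.9 RPKM in D51 and 20.3 in WT would pass Cd9 at 46.5 in D51 and 16.5 in WT. Tyrobp at 40.7 RPKM in D51 would then stand below both tetraspanins, and Fabp5 at 3.52 RPKM in WT would stand above Tyrobp at 2.54.

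The adaptor outnumbered the receptor in every library. The ratio of Tyrobp to Trem2 in deposited RPKM was 11.4, 12.5 and 10.5 in D51 4 to 6 and 38.9, 33.7 and 26.4 in WT 1 to 3. The ratio was lower in every D51 library than in every WT library, with the WT values resting on 3 to 8 Trem2 reads per library. Trem2 was chosen for its large difference and Tyrobp was not, so the lower ratio follows in part from that choice. It is a description with no test. With the length of the longest protein-coding transcript the ratio was 2.57 to 3.06 in D51 and 6.49 to 9.57 in WT. Tyrobp also serves other receptors.

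Set against general macrophage genes, the members divided. The 10 genes of that yardstick, which include Csf1r, the receptor for macrophage growth factor, and Cd68, a lysosomal glycoprotein, were all called higher, from 2.11 (Csf1r) to 4.08 (Cd68) log2 units. Their summed level was 489 to 1145 CPM in D51 and 47.6 to 106 CPM in WT. A list of 6 resident macrophage markers differed less, summing to 98.4 to 137 CPM in D51 and 46.6 to 81.7 CPM in WT. Of these, 5 were tested and 3 were called higher, where 16.1% of all genes tested were. Cx3cr1 rose by 4.12, Folr2 by 2.14 and Mrc1 by 1.34, while Cd163 (0.11) and Lyve1 (0.21) were not called. Timd4 was not tested and went the other way, with 10 counts in D51 and 28 in WT. On the scale of log2(CPM + 0.1) minus the yardstick's mean, Spp1 stood at 2.26 ± 0.120 in D51 and -0.64 ± 0.359 in WT (SD, n = 3 each), a difference of 2.89. The differences were 2.26 for Gpnmb, 2.10 for Lgals3 and 1.90 for Trem2, with no overlap between groups. Spp1, Gpnmb, Lgals3 and Trem2 are the members chosen for their large differences, so lying above the yardstick follows in part from that choice. Tyrobp, at -0.49 ± 0.181 in D51 and -1.07 ± 0.392 in WT, overlapped between groups. Fabp5 (-0.64), Cd9 (-1.92) and Cd63 (-1.88) lay lower against the yardstick in D51 than in WT, although their own levels were higher. The yardstick's mean was itself 3.08 higher in D51, so a gene with no change would lie lower by about that much. The share of all genes tested that lay lower, or did not overlap, on this scale was not computed. With Csf1r alone as yardstick all 8 values shifted up, and that of Fabp5 turned to 0.34. For Trem2 the difference was 0.78 with a pseudocount of 1. Without D51 6 the difference of Gpnmb was 1.65, and the other 7 moved by less. These differences come from the contrast that chose the members and have no test.

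**Figure D2:**
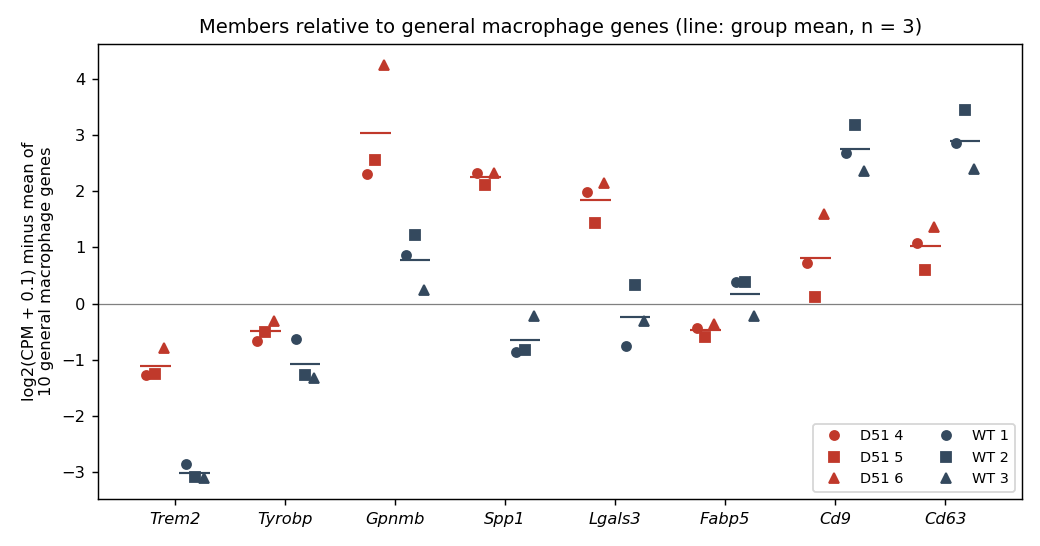
Log2(CPM + 0.1) of each member minus the mean of 10 general macrophage genes, for D51 libraries (red, left of each pair) and WT libraries (dark, right), with a line at each group mean. Trem2, Gpnmb, Spp1 and Lgals3 lie higher in D51, Fabp5, Cd9 and Cd63 lie lower in D51, and Tyrobp overlaps. The mean of the 10 genes is itself 3.08 higher in D51, so an unchanged gene would lie lower by about that much.

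The D51 libraries did not share one pattern. D51 6 was the lowest D51 library for 6 of the 8 members, at 59.2% (Spp1) to 79.9% (Cd63) of the mean of D51 4 and D51 5. Gpnmb stood at 189% and Cd9 at 125% of that mean. Among 63 listed pathway and family genes called higher, D51 6 was the lowest D51 library in 41 and the highest in 6, and 4 reached at least the share of Gpnmb. Chosen after their values were seen, these 4 were the macrophage elastase gene Mmp12 (329%), the integrin gene Itgax (270%), the proton pump subunit gene Atp6v0d2 (230%) and the integrin gene Itgb3 (198%). Osteoclasts, the bone-resorbing relatives of macrophages, are known to express several of these, and 5 of 8 markers of that cell type had their highest D51 value in D51 6. Neither for these markers nor for the 63 listed genes was the matching share over all genes computed, so the counts are descriptions only. The summed level of the 8 osteoclast markers was 82.4, 74.0 and 168 CPM in D51 4 to 6 and 56.7 to 74.0 CPM in WT. None was at 0 in every library. Of the 8, 5 were tested and 2 were called higher, where 16.1% of all genes tested were. Ctsk (cathepsin K) stood at 28.9, 24.8 and 90.1 CPM in D51, Acp5 (tartrate-resistant phosphatase) at 4.83, 7.26 and 12.4 CPM, and Mmp9 (gelatinase B) at 0.984, 1.05 and 17.9 CPM. The fusion gene Dcstamp had 11, 4 and 22 counts, the calcitonin receptor gene Calcr had 22, 18 and 10, the receptor gene Oscar had 3, 3 and 6, and the fusion gene Ocstamp had 13, 11 and 8. Nfatc1, a transcription factor that other cells also make, stood at 45.6, 39.3 and 45.6 CPM in D51 and at 50.7 ± 5.71 CPM in WT. Ibsp, a bone matrix gene, had 17, 3 and 121 counts in D51 4 to 6 but also 3, 2 and 120 counts in WT 1 to 3, so it was as high in WT 3. The part of osteoclast, bone or fibre transcripts in the Gpnmb level of D51 6 was not tested, and Gpnmb was 144 and 245 CPM in the other D51 libraries.

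**Figure D3:**
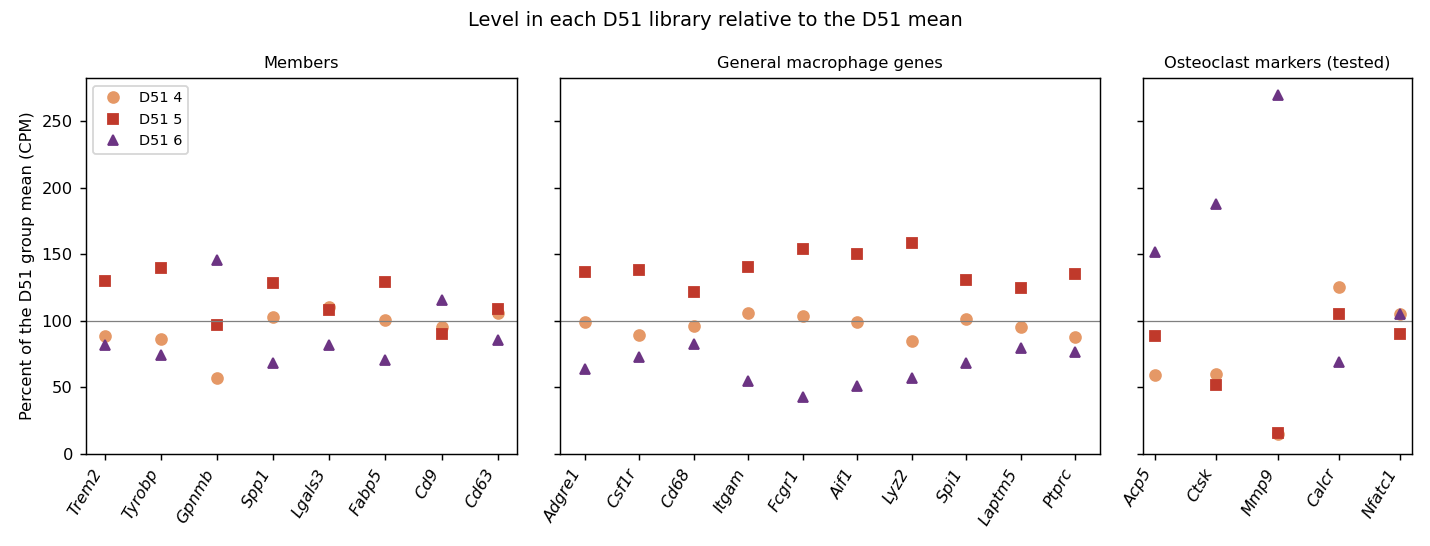
Level in D51 4, D51 5 and D51 6 as percent of the D51 group mean in CPM, for the members (left), 10 general macrophage genes (middle) and the 5 tested osteoclast markers (right). All 10 macrophage genes are lowest in D51 6, while Gpnmb, Cd9, Acp5, Ctsk and Mmp9 are highest there.

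Other cell types that make some of these proteins were checked by their markers. Counts of called markers stand beside 16.1% called higher and 11.9% called lower over all genes tested. The 5 melanocyte markers, a cell type known for Gpnmb, summed to 0.156 to 0.556 CPM in D51 and 0.430 to 0.658 CPM in WT, and none passed the low-count filter. Keratinocyte markers, for Fabp5, summed to 1.14 to 1.75 CPM in D51 and 0.877 to 1.15 CPM in WT, with Krt5, Krt14 and Krt1 at 0 throughout. Neutrophil markers summed to at most 1.45 CPM in D51 and 1.5 CPM in WT, with Ly6g, Mpo and Elane at 0. Mast cell markers had 0 of 5 called, at 13.6 to 21 CPM in D51 and 9.97 to 16.9 CPM in WT. Platelet markers, for Cd9 and Cd63, summed to 5.35 to 15.4 CPM in D51 and 2.25 to 3.98 CPM in WT, mostly from Pf4, which macrophages can also express. Markers of fibro-adipogenic progenitors, which also make Cd9 and Cd63, summed to 668 to 866 CPM in D51 and 495 to 665 CPM in WT, with 3 of 5 called higher. Markers of satellite cells and myoblasts summed to 66.9 to 113 CPM in D51 and 29.7 to 32.0 CPM in WT, with 2 of 4 called higher. Among cell types not tied to a member, markers were called lower for endothelial cells (3 of 5) and Schwann cells (3 of 4), and 2 of 5 dendritic cell markers were called higher. The part of these cell types in the Cd9 and Cd63 differences was not tested.

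Downstream of Tyrobp, most of the signalling chain was higher. Of 14 listed genes 13 were tested, 10 rose and 0 fell, against 16.1% higher and 11.9% lower among all genes tested, with a list median log2 fold change of 2.05 against -0.01. The 10 general macrophage genes had a higher median, 3.10, and many leukocyte types also make the chain's genes. Syk, the kinase that docks on Tyrobp, stood at 27.5 ± 5.64 CPM in D51 and 5.63 ± 1.67 CPM in WT (log2 fold change 2.30, SE 0.239, edgeR adjusted p = 9.12e-04). Pik3r5, a regulatory subunit of phosphoinositide 3-kinase, rose by 2.86 (SE 0.243, adjusted p = 4.57e-04), and Inpp5d, the SHIP1 phosphatase that opposes it, by 2.05 (SE 0.230, adjusted p = 0.00115). The adaptor Hcst (DAP10), an alternative partner of Trem2, had 9 counts in D51 and 2 in WT and was not tested.

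Among 16 listed receptors of families that hold partners of Tyrobp, 4 passed the low-count filter. Not each of the 16 is known to use Tyrobp. Of the 4 tested, 3 rose and 0 fell, where 16.1% of all genes tested rose and 11.9% fell. The tested genes are those expressed in at least 1 genotype, so this count describes them and not the 16. Cd300lb stood at 7.89 ± 1.48 CPM in D51 and 0.654 ± 0.178 CPM in WT (3.61, SE 0.260, adjusted p = 2.97e-04). Cd300ld stood at 7.75 ± 0.283 and 1.21 ± 0.815 CPM (2.69, SE 0.424, adjusted p = 0.0039), and the lectin receptor Clec5a at 2.45 ± 0.672 and 0.462 ± 0.280 CPM (2.40, SE 0.442, adjusted p = 0.00688). The other TREM receptors were close to absent, with Trem1 at 2 counts in D51 and 0 in WT, and Trem3 at 3 and 0. With no filter 8 of the 16 were called higher, and without WT 3 the count was 5.

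Genes of the lipid-associated state, other than the members, were mostly higher. Of 30 listed, 29 were tested, 22 rose and 2 fell (list median 1.27), where 16.1% of all genes tested rose and 11.9% fell. Clec7a, the beta-glucan receptor dectin-1, stood at 21.1 ± 5.64 CPM in D51 and 1.40 ± 0.471 CPM in WT (3.94, SE 0.283, adjusted p = 2.97e-04). Ctsz, a lysosomal cathepsin, rose by 1.63 (SE 0.138, adjusted p = 4.57e-04), and Atp6v0d2 by 5.98 (SE 0.546, adjusted p = 5.68e-04), at 16, 18 and 39.05 CPM in D51 4 to 6. In WT, Atp6v0d2 stood at 0.394 ± 0.249 CPM, which rests on 19 reads in all, so it passed the low-count filter through D51 alone. Ank, a pyrophosphate transporter, fell by 0.70 on the log2 scale (SE 0.108, adjusted p = 0.00353), at 189 ± 19.0 CPM in D51 and 306 ± 20.2 CPM in WT. The other fall was Lpl, lipoprotein lipase, at 509 ± 65.6 CPM in D51 and 930 ± 250.2 CPM in WT, a gene that muscle fibres and fat also make. Without WT 2, WT 3 or D51 4, 1 of these genes was called lower in place of 2.

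Genes for the receptors and partners of osteopontin, Gpnmb and galectin-3 were higher as well, by smaller steps. Of 13 listed, 13 were tested, 10 rose and 0 fell (list median 0.60), where 16.1% of all genes tested rose and 11.9% fell. Cd44, a receptor of osteopontin and Gpnmb, stood at 65.2 ± 18.8 CPM in D51 and 12.2 ± 3.32 CPM in WT (2.42, SE 0.272, adjusted p = 0.00115). Itga5, the alpha chain of a fibronectin receptor, rose by 1.08 (SE 0.141, adjusted p = 0.00198), and Lgals3bp, a glycoprotein that binds galectin-3, by 1.26 (SE 0.182, adjusted p = 0.00276). Leaving out WT 2 or WT 3 left 6 called higher each.

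The MiT factors, which in macrophages and osteoclasts are known to drive Gpnmb, did not move as one. Tfec, the member made mainly by macrophages, stood at 1.47 ± 1.01 CPM in D51 and 0.224 ± 0.0994 CPM in WT (2.72, SE 0.648, adjusted p = 0.0174). With 5, 2 and 4 counts in WT 1 to 3, Tfec passed the low-count filter through D51 alone. Tfeb, the lysosome regulator, fell by 0.48 on the log2 scale (SE 0.112, adjusted p = 0.0170), at 38.8 ± 5.19 CPM in D51 and 53.8 ± 3.20 CPM in WT. Tfe3 and Mitf itself were named after their values were seen. Tfe3 rose by 0.48 (SE 0.129, adjusted p = 0.0264), at 16.9 ± 2.09 and 12.1 ± 1.09 CPM. Mitf stood at 26.7 ± 4.43 and 30.8 ± 3.3 CPM and was not called. The proteases that shed Trem2 and Gpnmb from the cell surface were slightly higher, Adam10 by 0.49 (SE 0.115, adjusted p = 0.0163) and Adam17 by 0.50 (SE 0.0878, adjusted p = 0.00567). Of these 6 genes 4 rose and 1 fell, where 16.1% of all genes tested rose and 11.9% fell. Without WT 2 only 1 rise was left and without D51 4 or D51 5 there were 2, and the fall of Tfeb was lost in each of these and under library-size scaling (-0.13). The calls of Adam10 (0.38, 0.46 and 0.48 without WT 2, D51 4 and D51 5) and, without WT 2, of Tfec (2.36) ended too.

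Apoptotic-cell uptake genes were divided. Of 17 listed, 14 were tested, 7 rose and 0 fell (list median 0.83), where 16.1% of all genes tested rose and 11.9% fell. The scavenger receptor Msr1 stood at 12.6 ± 4.21 CPM in D51 and 1.14 ± 0.519 CPM in WT (3.51, SE 0.361, adjusted p = 8.76e-04). Dock2, a regulator of the leukocyte cytoskeleton, rose by 2.99 (SE 0.328, adjusted p = 0.00107), and the endotoxin co-receptor Cd14 by 2.82 (SE 0.339, adjusted p = 0.00146). Scaled to library size alone, 11 were called higher, and without WT 2 or D51 6 there was 1 called lower.

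**Figure D4:**
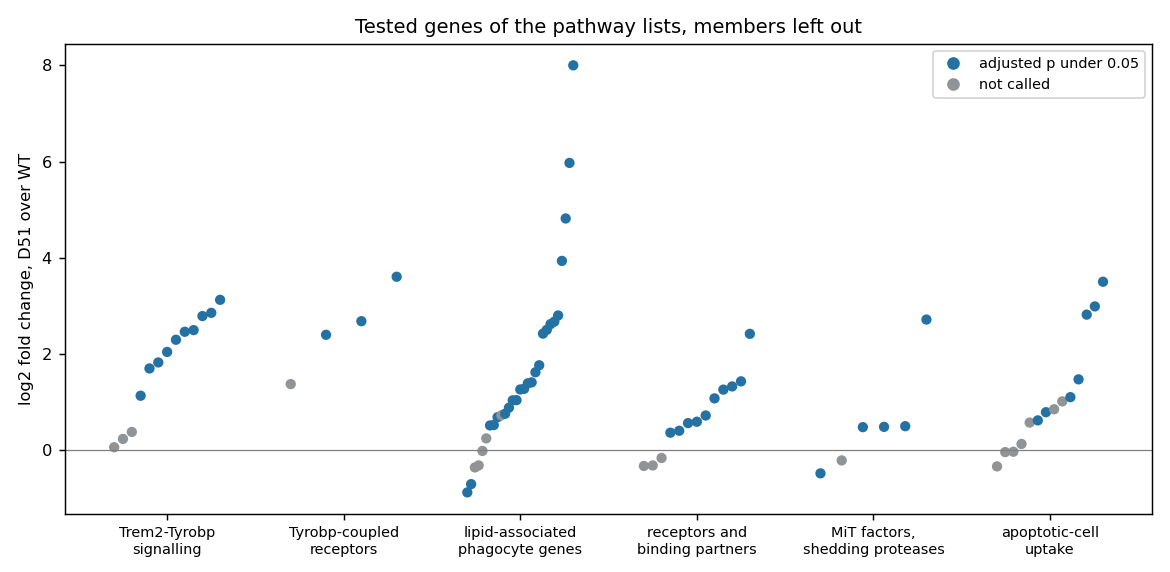
Log2 fold change, D51 over WT, of each tested gene in 6 pathway lists with the members left out, blue where the edgeR adjusted p was under 0.05 and grey otherwise. The signalling chain and the receptor lists lie mostly above 0. In the MiT and protease list, the genes other than Tfec lie between -0.48 (Tfeb) and 0.50 (Adam17).

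The relatives of the members in their gene families were counted as well, with no test against the members. Over all genes tested, 16.1% were called higher and 11.9% lower. Counts among few tested genes are given beside these shares and not read as results. In the galectins, 4 of the 7 relatives of Lgals3 were tested, and 1 rose and 0 fell: Lgals1 stood at 199 ± 28.8 CPM in D51 and 74.5 ± 6.89 CPM in WT (1.42, SE 0.130, adjusted p = 5.84e-04). The count of galectins called higher was 3 under library-size scaling and 2 with no filter, by DESeq2, with a replicate block and without D51 6. Among 9 relatives of Fabp5, 2 were tested and 0 were called. The muscle form Fabp3 stood at 56.1 ± 14.7 CPM in D51 and 84.4 ± 11.4 CPM in WT (adjusted p = 0.0542). It was called lower with no filter (adjusted p = 0.00221), by DESeq2 (0.0221), with a replicate block (0.0457), without WT 1 (0.0464) and without D51 4 (0.0286), and not in the other 8 alternatives. The adipocyte and endothelial form Fabp4 was at 196 ± 59.8 and 197 ± 53.1 CPM, with a log2 fold change of -0.01 that turned to 0.35 under library-size scaling. Of 29 other tetraspanins 24 were tested, 6 rose and 2 fell (list median 0.25), where 16.1% of all genes tested rose and 11.9% fell, so these counts lie near the background. The leukocyte tetraspanins Cd53 (3.39, SE 0.373, adjusted p = 0.00107) and Cd37 (2.55, SE 0.345, adjusted p = 0.00227) rose, as did Cd82 (1.73, SE 0.223, adjusted p = 0.00186). Tspan12, a partner of the Norrin receptor in vessels, fell by 0.68 on the log2 scale (SE 0.133, adjusted p = 0.00869) and was not called under library-size scaling (-0.32), where 13 tetraspanins were called higher and 0 lower. Without WT 1, WT 2 or D51 5, 1 tetraspanin was called lower. In the bone-matrix family of Spp1, 5 genes with Pmel, a relative of Gpnmb, 2 were tested and 1 rose: Dmp1, at 1.61 ± 0.350 CPM in D51 and 0.158 ± 0.0573 CPM in WT (3.29, SE 0.378, adjusted p = 0.00125). With 4, 2 and 2 counts in WT 1 to 3, Dmp1 passed the low-count filter through D51 alone.

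**Figure D5:**
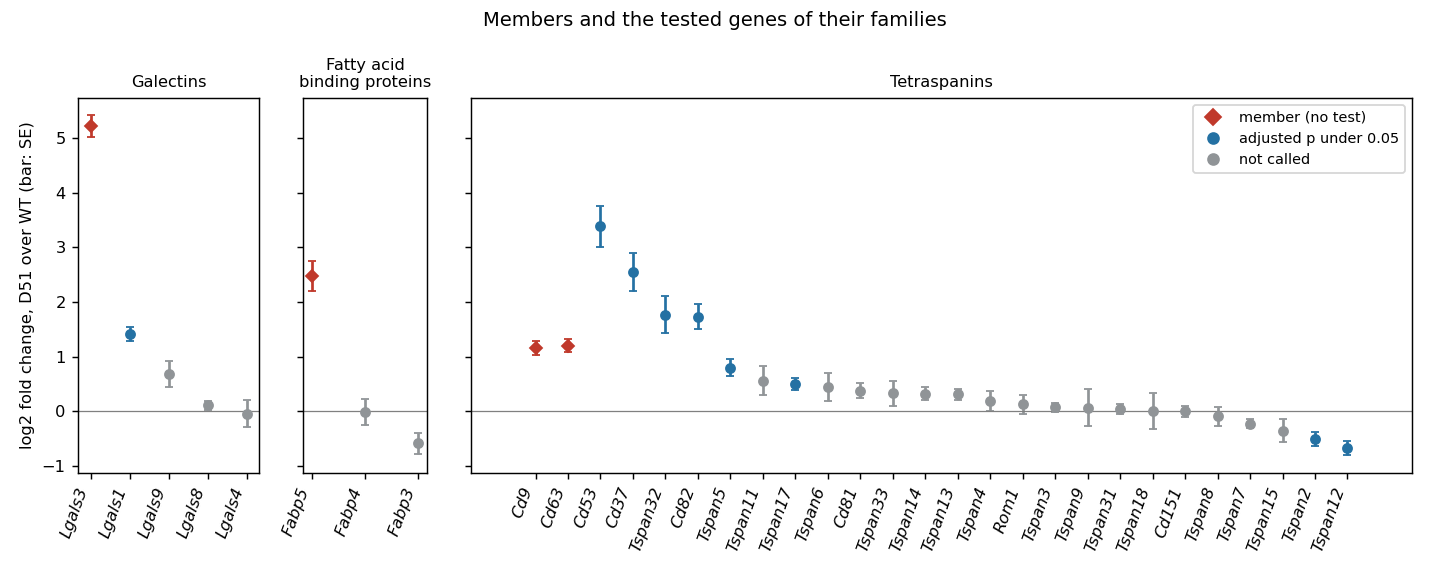
Log2 fold change with SE, D51 over WT, of Lgals3, Fabp5, Cd9 and Cd63 (red diamonds, no test) beside the tested genes of their families (blue circles called by edgeR, grey circles not called). Lgals3 and Fabp5 lie above their tested relatives, while 4 called tetraspanins lie above Cd9 and Cd63.

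Over all 6 libraries the members varied together, with Pearson's r of 0.926 to 0.995 over the 28 pairs of log2(CPM + 0.1). The genotype gap sets most of this, and 591 of 9398 other genes of at least 5 CPM had an r over 0.95 with Trem2 and 283 with Gpnmb. The genes most like Trem2 were Rab7b (0.998), Rbbp4 (0.998), Tmem176a (0.998) and Sh3bp2 (0.997). Rab7b, a small GTPase gene of endosomes, stood at 19.2, 20.0 and 18.5 CPM in D51 and 5.20, 3.67 and 4.87 CPM in WT. Those most like Gpnmb were Myo1c (0.998), Psen2 (0.997), Anpep (0.996) and Fam49a (0.994). Anpep, the aminopeptidase N gene, was highest in D51 6 like Gpnmb, at 37.5, 43.1 and 63.9 CPM in D51 and 11.2, 9.97 and 10.7 CPM in WT. A high r says nothing of the size of a change, since Rbbp4 stood at 82.7 to 84.2 CPM in D51 and 57.4 to 61.9 CPM in WT.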

How the data were processed

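Read counts per gene, exon lengths, RPKM and a table of log2 fold changes were deposited by the authors for 6 libraries. The build listed in the submitters' processing notes is GRCm38 (mm10), and the tools listed there are featureCounts 1.6.0, FastQC 0.11.4 and edgeR 3.30.1. The sources used here do not name the aligner, the strand setting or the annotation. The deposited counts are whole reads per gene, not normalized, while the deposited RPKM are scaled by the authors to exon length and library total and lie above 0 where the count is 0. The log2 fold changes of the authors' deposited table come from their edgeR comparison, per the file headers.

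Counts were tested by quasi-likelihood in edgeR 4.0.16 (R 4.3.3) over both groups of 3, with TMM, the default low-count filter and Benjamini-Hochberg adjustment across the 14335 genes left. Calls are two-sided and need an adjusted p under 0.05. A gene near the floor in WT could pass the filter through D51 alone, and its direction then follows in part from the filter. SE is the absolute log2 fold change divided by the square root of F. Alternatives used DESeq2 1.42.0 and limma 3.58.1. On simulated counts (14059 genes, D51 against WT) the test called 31.3% of genes changed 1.5-fold, 77.6% of those changed 2-fold and 95.5% of those changed 4-fold, with 4 of 140 calls false. The simulation changed 200 genes and drew counts with a spread set by mean level alone. In the data 2309 genes were called higher and 1701 lower, so the simulated rates need not hold for this contrast. Gene positions are from GENCODE M21, whose exon lengths equal the deposited ones for all 8 members. Copies were sought with blastn at 90% identity or more over 50% of the transcript. Within-group chi-square values of 8.52 to 48.0 per degree of freedom show no library deposited again. Totals limit precision: 3 reads, the count floor, are 0.128 to 0.215 CPM, which covers counting error only.

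Members, gene lists and marker lists were chosen with earlier results of these data known. Named genes are the members, up to 4 called genes per list (the 3 with the smallest adjusted p that moved with the list's median, and 1 that moved against it), the 2 highest where none was called, and the 4 most correlated with Trem2 and with Gpnmb. Others are given by value, as markers or as chosen after their values were seen. Lgals1 and Fabp4 stand in 2 lists each.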

Additional observations from a re-analysis of the deposited data

How the results depend on the processing

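All 8 member fold changes held their sign under all 13 alternatives, with log2 ranges of 4.93 to 5.65 for Trem2, 3.32 to 4.10 for Tyrobp, 5.06 to 5.77 for Gpnmb, 5.62 to 6.46 for Spp1 and 2.26 to 2.84 for Fabp5. Scaling to library size alone moved Lgals3 to 5.59, Cd9 to 1.5 and Cd63 to 1.56, gave 5394 genes higher and 334 lower, and left 1 listed gene lower in place of 5, by the construction of a scaling without TMM. Leaving out 1 library gave 1346 to 2662 genes higher, 663 to 2157 lower and 3 to 7 listed genes lower, lowest for both genome-wide counts without WT 2. Without D51 4 and D51 5 there were 986 and 759 genes lower, and the cause was not tested. Listed genes called higher ranged from 49 to 79 around 63.

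Against Csf1r alone, the members' differences relative to macrophage genes became 2.88 for Trem2, 1.56 for Tyrobp, 3.23 for Gpnmb, 3.87 for Spp1, 3.07 for Lgals3, 0.34 for Fabp5, -0.95 for Cd9 and -0.91 for Cd63, as Csf1r differed least of the 10 yardstick genes. A pseudocount of 1 gave 0.78 for Trem2. Fabp4, near 0, turned sign to 0.35 under library-size scaling, 0.0103 with no filter, 0.22 without WT 3, 0.10 without D51 4 and 0.12 without D51 6, and leaving out 1 library gave -0.28 to 0.22.

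Whether the replicate numbers in the labels' descriptions pair the libraries is not settled. Between same-numbered D51 and WT deviations r was 0.351, -0.01 and 0.0558 for D51 4 to 6, and D51 4 alone correlated best with its own number. A replicate block gave 2508 genes higher and 1960 lower, and 66 listed genes higher and 7 lower. WT levels of Trem2 rest on 3 to 8 reads per library.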
